A study of Mus musculus with 6 samples.

Results

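The enzymes described here write, remove or oxidise chemical marks on histones and DNA. They were taken by gene name from the array's annotation: histone deacetylases (Hdac), sirtuins (Sirt), DNA methyltransferases (Dnmt), TET dioxygenases, histone demethylases (Kdm), SET domain and MLL methyltransferases, protein arginine methyltransferases (Prmt), and the single genes Ezh1, Ezh2, Suz12, Eed, Ehmt1, Ehmt2, Ep300, Crebbp, Kat2a and Kat2b. These rules found 71 genes on 113 probes, out of 34844 gene names on 55681 probes, and used no measured value. Of the 71, 69 had a probe whose signal stood well above background on 3 or more of the 6 arrays. The exceptions were Kdm4d, which was well above background on 0 arrays, and Kdm5d, on 1.

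RNA of inguinal fat, a subcutaneous depot, was measured in male C57BL/6J mice on Agilent 1-colour arrays, with 3 samples in each of 2 groups. The group titled DIO_CR_WR (diet-induced obesity, calorie restriction, weight regain) received, from the age of 2 months, a high fat diet with 60% of energy from fat for 1 month. Calorie restriction for about 3 weeks then brought the mice to the body weight of mice kept on chow, and free access to the high fat diet followed. The group titled DIO ate chow throughout the first periods and received the same high fat diet during that last period only, so both groups ended on it. Group names here are those of the sample titles; in the protocol text, DIO stands for the mice titled DIO_CR_WR, and CTR for those titled DIO. The labels give ages of 9, 10 and 11 months for the DIO_CR_WR samples and 6, 7 and 8 months for the DIO samples, although the protocol describes mice of even age. Age as labelled and diet history cannot be told apart. The labels do not say whether a sample is 1 mouse or a pool, so all p-values measure the spread between these samples.

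Acetylation of histone tails by acetyltransferases loosens chromatin and is removed by histone deacetylases and, with NAD as a cosubstrate, by sirtuins. Histone methylation is laid down by SET domain enzymes on lysine and by Prmt enzymes on arginine, and lysine demethylases remove it, while Dnmt enzymes methylate cytosine in DNA and TET enzymes oxidise the methyl group. In fat tissue these enzymes are studied for their part in adipocyte differentiation, in the response to feeding and fasting, and as carriers of a record of past diet.

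The upstream sequences below are those of the arginine methyltransferases Prmt1, Prmt5 and Prmt7. They are shown because the brightest probe of each was lower in all DIO_CR_WR samples than in any DIO sample. Each is the 250 bases before the RefSeq start on build GRCm38.p6, 5′ to 3′ on the gene's strand, and capitals mark the GC box letters GGGCGG or their reverse complement. Prmt1 is on the minus strand (chr7:44986421-44986670), Prmt5 on the minus strand (chr14:54517471-54517720) and Prmt7 on the plus strand (chr8:106210804-106211053).
Prmt1: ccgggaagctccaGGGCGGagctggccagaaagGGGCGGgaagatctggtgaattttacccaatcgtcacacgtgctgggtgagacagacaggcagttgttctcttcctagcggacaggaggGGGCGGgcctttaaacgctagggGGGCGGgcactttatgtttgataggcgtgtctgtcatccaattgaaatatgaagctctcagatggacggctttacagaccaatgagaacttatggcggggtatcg
Prmt5: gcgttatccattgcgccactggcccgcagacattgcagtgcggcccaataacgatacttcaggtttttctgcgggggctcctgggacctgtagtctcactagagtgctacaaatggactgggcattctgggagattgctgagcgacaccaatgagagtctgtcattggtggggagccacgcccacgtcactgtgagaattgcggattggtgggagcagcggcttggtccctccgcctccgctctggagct
Prmt7: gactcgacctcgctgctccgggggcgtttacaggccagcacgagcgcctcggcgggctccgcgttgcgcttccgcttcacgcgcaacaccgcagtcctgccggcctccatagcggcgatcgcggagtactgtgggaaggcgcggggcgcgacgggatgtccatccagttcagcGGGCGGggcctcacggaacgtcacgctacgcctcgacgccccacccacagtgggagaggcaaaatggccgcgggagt
The window of Prmt1 held 4 GC boxes, that of Prmt7 held 1 and that of Prmt5 held 0. The letters CCAAT, searched on both strands, occurred 3 times before Prmt1, 4 times before Prmt5 and 0 times before Prmt7. Of the 69 enzymes, 59 had a window in the RefSeq table, and 35 of these windows (59.3%) held a GC box on either strand, against 32.9% of all 27025 windows of the same length. CCAAT was present in 23 of the 59 windows (39%), against 34.5% of all windows. The letters CACGTG of the E-box were in 5 enzyme windows (8.47%), against 6.05% of all, and the letters TGACGTCA of the CRE in 1 (1.69%), against 1.62% of all. The median number of CG pairs was 17 in the enzymes' windows and 6 in all windows. The 59 windows belong to genes with a kept probe, while all windows were taken without a filter on signal. These shares and medians therefore compare unlike sets of genes. A match describes these letters in this window and nothing about binding.

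The arrays differed in brightness and in slide. The 75th percentile of the processed signal was 5403 to 6370 on the DIO_CR_WR arrays and 4108 to 4452 on the DIO arrays, and 51.1% to 65.6% of probes were well above background on the DIO_CR_WR arrays, against 68.2% to 79.2% on the DIO arrays. Slide 1 held the 3 DIO_CR_WR arrays with DIO replicate 1, and slide 2 held the other 2 DIO arrays, so slide and group overlap on 1 DIO array only. A slide 1 fold change or value below therefore sets 3 DIO_CR_WR arrays against a single DIO array. Levels are log2 signals relative to the 75th percentile of the same array, listed in the order of replicates 1 to 3. A fold change is the mean level in DIO_CR_WR minus that in DIO, with limma's standard error, its two-sided p and an adjusted p over all 26178 genes tested (Benjamini-Hochberg).

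No enzyme passed an adjusted p of 0.05, with 0 of 69 called and a lowest adjusted p of 0.118. Among all 26178 genes limma also called 0 (0%). At an unadjusted p under 0.05, 0 enzymes were higher in DIO_CR_WR, where 5.38% of all genes were, and 15 enzymes (21.7%) were lower, where 21.8% of all genes were. The share of lower enzymes was thus near that of the whole array. Without Tet3, whose DIO_CR_WR level was not above background, the 15 are 14. The 15 were Tet1, Tet3, Mll2, Setd3, Setd7, Setd8, Ehmt1, Prmt1, Prmt5, Prmt7, Hdac3, Hdac5, Hdac11, Sirt4 and Kdm6b. Without overlap between the 3 DIO_CR_WR and the 3 DIO values, 1 enzyme was higher (1.45%, background 7.18%) and 23 were lower (33.3%, background 26.8%), or 22 without Tet3. Fold changes below 0 were found in 65.2% of the enzymes and 66.5% of all genes. The median fold change over the 69 enzymes was −0.14, against −0.20 over all genes, and 37 of the 69 lay above the median of all genes. With each array scaled on its spike-in probes in place of the 75th percentile, the median of all genes was 0.30 and that of the enzymes 0.36, and 58 of the 69 enzymes had a fold change above 0. Directions below are therefore relative to the 75th percentile of each array. A fold change between −0.20 and 0 lies below 0 but above the median of all genes. With the spike-ins 34 of the 69 enzymes turned, all to above 0. The spike-ins stood above the 75th percentile by 1.71, 1.69 and 1.76 log2 units on the DIO_CR_WR arrays. On DIO replicate 1 (slide 1) it was 1.87, and on DIO replicates 2 and 3 (slide 2) 2.47 and 2.32. Spike-in values thus differ by slide as well as by group, and the part of the slide in them was not tested. The spike-in value is given below for each enzyme lower without overlap that turned, and for some others. Of the 15 lower enzymes, 10 stayed below 0 with the spike-ins, and the 5 others were Setd7, Hdac3, Hdac5, Prmt1 and Sirt4. Among the 10, Prmt7, Hdac11, Setd8, Kdm6b and Prmt5 lay between −0.06 and −0.02, close to 0. With this scaling 0 enzymes were lower at an unadjusted p under 0.05, where 2.95% of all genes were.

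**Figure D1:**
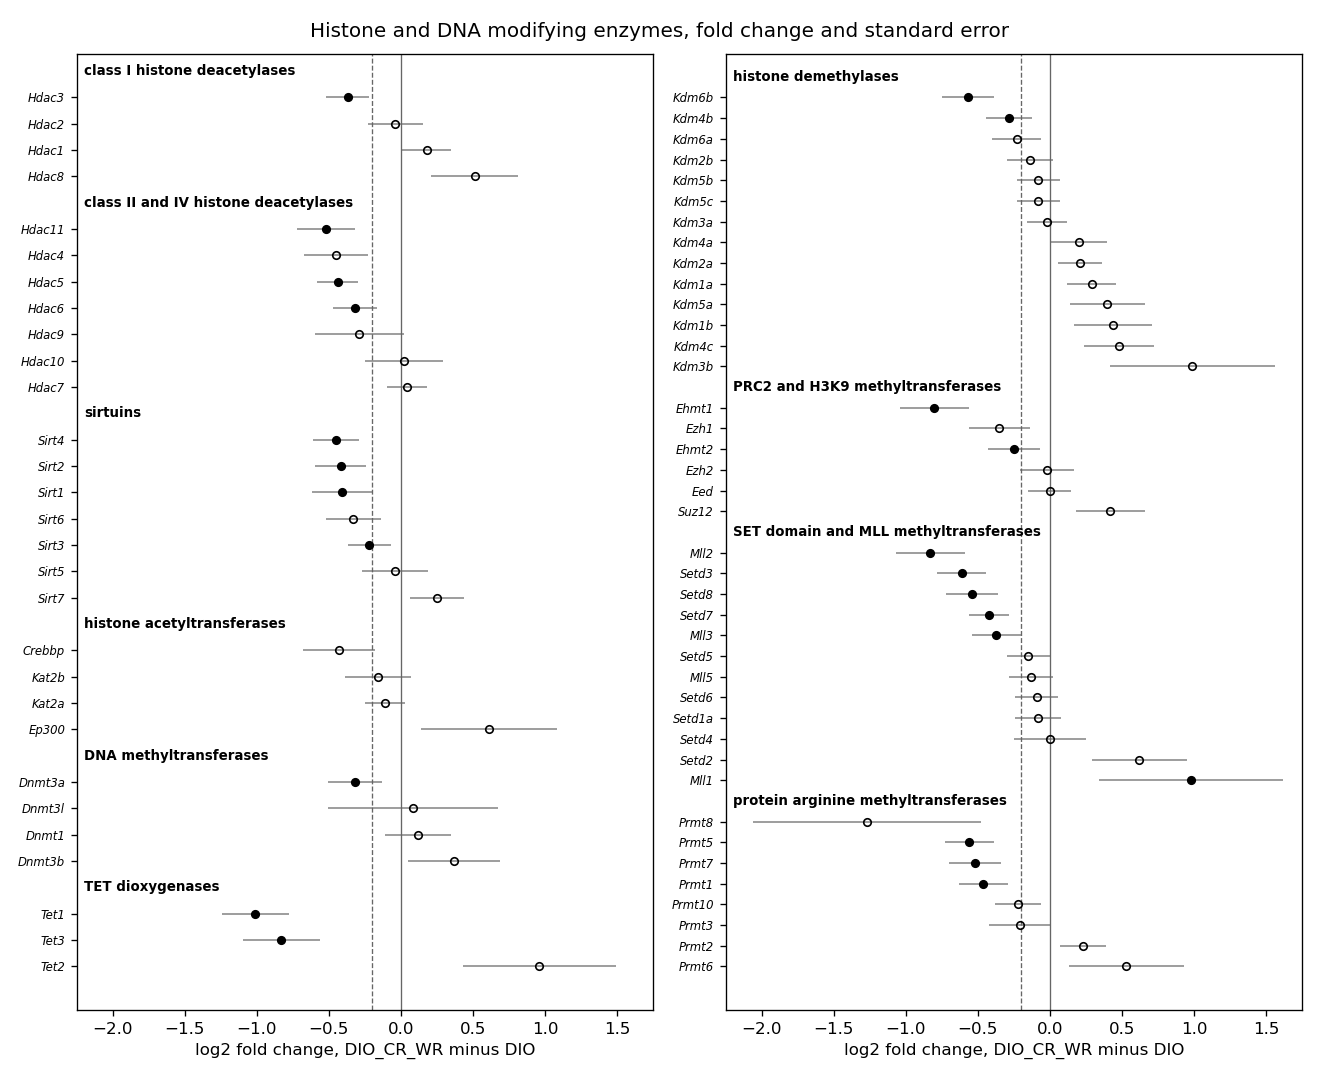
Log2 fold change (DIO_CR_WR minus DIO) of each of the 69 enzymes, by class, with bars of 1 standard error from limma. Filled points are enzymes whose 3 DIO_CR_WR and 3 DIO values did not overlap, the dashed line is the median of all genes at −0.20, and the points run from −1.27 for Prmt8 to 0.99 for Kdm3b. The points of Tet3 and Prmt8 are measured differences against DIO_CR_WR levels at or near background.

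The TET dioxygenases, which oxidise 5-methylcytosine, have 3 members, and these did not share 1 sign. Tet1 had levels of −5.25, −4.89 and −4.58 on the DIO_CR_WR arrays, against −4.16, −3.85 and −3.66 on the DIO arrays. All DIO_CR_WR values were below all DIO values. This gave a fold change of −1.01 ± 0.23 (SE), with adjusted p = 0.118, and it was −0.74 on slide 1. The probe, at chr10:62276042-62276101 on mm9 (the build of all probe positions here), was well above background on 2 of 3 DIO_CR_WR arrays and on 3 of 3 DIO arrays. Tet1 is the member of the family best known from pluripotent and germ cells. On its other 2 kept probes the groups overlapped. These were well above background on 0 and 1 of 3 DIO_CR_WR arrays and on 3 and 2 of 3 DIO arrays. Their measured differences of −0.53 and −0.39 therefore rest on DIO_CR_WR levels at or near background.

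Tet3, known for the oxidation of paternal DNA in the zygote, had levels of −6.26, −6.97 and −6.19 on the DIO_CR_WR arrays, against −5.95, −5.38 and −5.59 on the DIO arrays. The measured values did not overlap, but the probe was well above background on 0 of 3 DIO_CR_WR arrays and on 3 of 3 DIO arrays, and it was kept only through the DIO arrays. The DIO_CR_WR level of Tet3 is therefore only bounded from above, the bound lies above the DIO mean, and no fold is given (adjusted p = 0.135).

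Tet2, the TET enzyme often mutated in blood cell clones, showed the opposite sign to Tet1 without passing the test. Its levels were −0.37, −0.26 and −0.14 on the DIO_CR_WR arrays, against −0.03, −1.38 and −2.24 on the DIO arrays. DIO replicate 1, on the slide of the DIO_CR_WR arrays, was the highest of all 6 values, and the 2 slide 2 arrays were the lowest. In limma the fold change was 0.96 ± 0.53 (SE), with adjusted p = 0.275, and it turned to −0.23 on slide 1. A second Tet2 probe starting 154 bases away gave 0.82, with levels of −0.79, −0.93 and −0.68 on the DIO_CR_WR arrays, against −0.66, −2.09 and −2.13 on the DIO arrays. The same slide pattern thus appeared on both neighbouring probes. A probe farther along the gene gave −0.36, with overlapping groups.

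**Figure D2:**
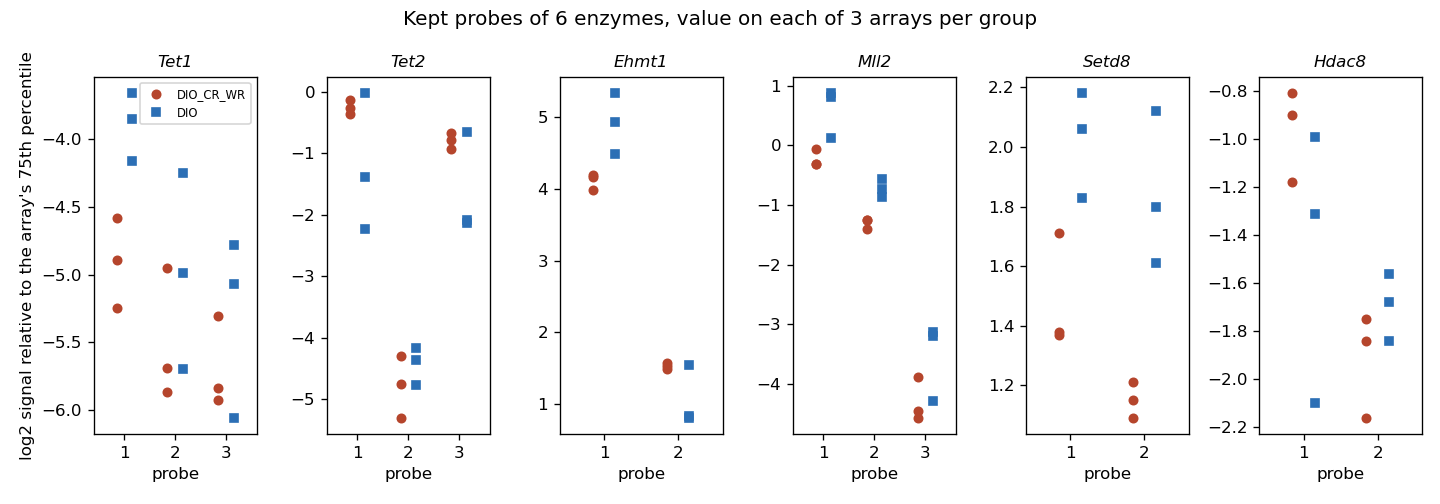
Log2 signal relative to the array's 75th percentile for every kept probe of Tet1, Tet2, Ehmt1, Mll2, Setd8 and Hdac8, with 3 DIO_CR_WR arrays (circles) and 3 DIO arrays (squares) per probe. Probes of Tet1, Mll2 and Setd8 have fold changes of 1 sign, while those of Tet2, Ehmt1 and Hdac8 have both signs. All Tet1 probes but the brightest are at or near background in DIO_CR_WR.

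Of the 4 DNA methyltransferases, 0 reached an unadjusted p under 0.05 and the class median was 0.10. Dnmt3a, a de novo methyltransferase, had levels of −0.01, −0.27 and −0.15 on the DIO_CR_WR arrays, against 0.48, 0.01 and 0.03 on the DIO arrays. The highest DIO_CR_WR value was just under the lowest DIO value, and DIO replicate 1 stood above the rest. The fold change was −0.32 ± 0.19 (SE), with adjusted p = 0.307; it was −0.62 on slide 1 and 0.18 with the spike-ins. With slide as a block in the fit, Dnmt3a was the only enzyme lower at an unadjusted p under 0.05, at −0.62 ± 0.19 (SE, adjusted p = 0.446).

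Dnmt1, which copies methylation after DNA replication, had levels of −0.12, −0.23 and −0.47 on the DIO_CR_WR arrays, against −0.69, −0.53 and 0.05 on the DIO arrays. The groups overlapped through DIO replicate 3, the highest value of all, and the fold change was 0.12 ± 0.23 (SE), with adjusted p = 0.763 and 0.42 on slide 1. Dnmt3b, the other de novo enzyme, had levels of −1.75, −2.65 and −2.79 on the DIO_CR_WR arrays, against −3.09, −2.72 and −2.48 on the DIO arrays. DIO_CR_WR replicate 1 was the highest value and the other DIO_CR_WR arrays lay among the DIO arrays, with a fold change of 0.37 ± 0.32 (SE), adjusted p = 0.479, and 0.69 on slide 1. Dnmt3l, a cofactor of the de novo enzymes without catalytic activity, spread over more than 2 log2 units within DIO, and its fold change was 0.08 ± 0.59 (SE), and 1.08 on slide 1.

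The 4 acetyltransferases had a median fold change of −0.14, and 0 reached an unadjusted p under 0.05. Crebbp (CBP), a coactivator and acetyltransferase, had levels of 5.16, 4.33 and 4.46 on the DIO_CR_WR arrays, against 4.89, 5.14 and 5.20 on the DIO arrays. DIO_CR_WR replicate 1 lay among the DIO values and the other 2 DIO_CR_WR arrays were lower, with a fold change of −0.43 ± 0.25 (SE), adjusted p = 0.307, −0.24 on slide 1 and 0.08 with the spike-ins. Ep300 (p300), its paralog, had levels of 0.40, 0.02 and 0.28 on the DIO_CR_WR arrays, against 0.48, −0.17 and −1.42 on the DIO arrays. The 2 slide 2 arrays were the lowest and DIO replicate 1 the highest, so the fold change of 0.61 ± 0.47 (SE) (adjusted p = 0.425) became −0.24 on slide 1. Kat2a (GCN5), an acetyltransferase of the SAGA complex, had a fold change of −0.11 ± 0.14 (SE), and its paralog Kat2b (PCAF) one of −0.16 ± 0.23 (SE). Both of these overlapped between groups, and with the spike-ins they were at 0.39 and 0.34.

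Among the 4 class I deacetylases, the nuclear enzymes of corepressor complexes, Hdac3 was lower at an unadjusted p under 0.05. Of all genes 21.8% were lower at that limit, and the class median was 0.07. Hdac3, the catalytic subunit of nuclear receptor corepressor complexes, had levels of 0.14, 0.18 and 0.17 on the DIO_CR_WR arrays, against 0.61, 0.38 and 0.62 on the DIO arrays. The DIO_CR_WR arrays lay close together and below every DIO array. This gave a fold change of −0.37 ± 0.15 (SE), with adjusted p = 0.172, and the slide 1 value was −0.44. With the spike-ins it was 0.13, with the opposite sign.

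Hdac8, a class I enzyme outside the large complexes, had levels of −1.18, −0.90 and −0.81 on the DIO_CR_WR arrays, against −0.99, −1.31 and −2.10 on the DIO arrays and a fold change of 0.51 ± 0.30 (SE) (adjusted p = 0.31). The lowest values were the 2 slide 2 arrays, the slide 1 value was 0.03, and a second probe gave −0.22. Hdac1, of the Sin3 and NuRD complexes, had levels of 2.08, 2.15 and 2.05 on the DIO_CR_WR arrays, against 2.18, 1.86 and 1.71 on the DIO arrays. Here too the 2 slide 2 arrays were the lowest, and the fold change of 0.18 ± 0.17 (SE) became −0.09 on slide 1. Hdac2, its paralog, had a fold change of −0.04 ± 0.19 (SE), with overlapping groups.

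The 7 class II and IV deacetylases had a median fold change of −0.32, with 2 at an unadjusted p under 0.05 and 3 without overlap, all lower. Of all genes 21.8% were lower at that limit and 26.8% were lower without overlap. Hdac5, a class IIa enzyme that shuttles between nucleus and cytoplasm, had levels, at a probe on chr11:102057076-102057135, of 2.64, 2.45 and 2.53 on the DIO_CR_WR arrays, against 2.98, 2.98 and 2.97 on the DIO arrays. The 3 DIO arrays, on both slides, lay close together and above all DIO_CR_WR arrays. In limma the fold change was −0.44 ± 0.14 (SE), with adjusted p = 0.133; it was −0.44 on slide 1 and 0.06 with the spike-ins. 

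Hdac11, the single class IV enzyme, had levels of −3.19, −3.68 and −3.29 on the DIO_CR_WR arrays, against −2.88, −2.64 and −3.09 on the DIO arrays, with no overlap. Its fold change was −0.52 ± 0.20 (SE), with adjusted p = 0.17, and the slide 1 value was −0.51. Hdac6, a deacetylase of tubulin in the cytoplasm, had levels of 2.35, 2.49 and 2.40 on the DIO_CR_WR arrays, against 2.60, 2.73 and 2.86 on the DIO arrays, and the groups did not overlap. The fold change of −0.32 ± 0.15 (SE) did not reach an unadjusted p under 0.05 (adjusted p = 0.213) and was −0.19 on slide 1 and 0.18 with the spike-ins. A second Hdac6 probe, at almost the same position, gave −0.14, with overlapping groups. Hdac9, a class IIa enzyme described as a brake on adipocyte differentiation, had levels of −1.02, −0.70 and −1.19 on the DIO_CR_WR arrays, against −1.21, −0.74 and −0.10 on the DIO arrays. The groups overlapped, with DIO replicate 3 far above the other arrays, and the fold change was −0.29 ± 0.31 (SE) (adjusted p = 0.557), 0.24 on slide 1 and 0.21 with the spike-ins. Hdac4 had a fold change of −0.45 ± 0.22 (SE) (adjusted p = 0.235), and 0.05 with the spike-ins. Hdac7 and Hdac10 were at 0.04 and 0.02, and Hdac4, Hdac7 and Hdac10 all had overlapping groups.

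Of the 7 sirtuins, 6 had a fold change below 0, the median was −0.33, 4 were lower without overlap and 1 reached an unadjusted p under 0.05. Over all genes 66.5% were below 0, 26.8% were lower without overlap and 21.8% were lower at that limit. Sirt4, a mitochondrial sirtuin, had levels of −0.48, −0.42 and −0.40 on the DIO_CR_WR arrays, against −0.11, −0.06 and 0.23 on the DIO arrays. All DIO_CR_WR values were below all DIO values, on both slides. The fold change was −0.45 ± 0.16 (SE), with adjusted p = 0.144; it was −0.32 on slide 1 and 0.05 with the spike-ins.

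Sirt1, the nuclear sirtuin studied in calorie restriction, had levels of 1.28, 1.19 and 1.28 on the DIO_CR_WR arrays, against 1.30, 1.68 and 2.01 on the DIO arrays. The groups did not overlap, but DIO replicate 1 lay next to the DIO_CR_WR arrays and the slide 2 arrays stood apart. This gave a fold change of −0.41 ± 0.21 (SE), with adjusted p = 0.245, and the slide 1 value was −0.05. Sirt2, a mainly cytoplasmic sirtuin, had levels of 3.04, 2.61 and 2.77 on the DIO_CR_WR arrays, against 3.05, 3.30 and 3.33 on the DIO arrays. DIO replicate 1 again stood next to DIO_CR_WR replicate 1, and the fold change was −0.42 ± 0.18 (SE) (adjusted p = 0.193) and −0.24 on slide 1. Sirt3, the main mitochondrial deacetylase, had levels of 1.44, 1.55 and 1.40 on the DIO_CR_WR arrays, against 1.66, 1.58 and 1.81 on the DIO arrays, with no overlap and a fold change of −0.22 ± 0.15 (SE) (adjusted p = 0.352). With the spike-ins the values of Sirt1, Sirt2 and Sirt3 were 0.09, 0.08 and 0.28. Sirt7, a nucleolar sirtuin, was the 1 member above 0, at 0.25 ± 0.19 (SE), and its 3 kept probes gave both signs.

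Of the 8 arginine methyltransferases, 3 were lower both without overlap and at an unadjusted p under 0.05, and the class median was −0.34. Among all genes 26.8% were lower without overlap and 21.8% were lower at that limit. Prmt5, the main enzyme of symmetric arginine dimethylation, had levels, at a probe on chr14:55126523-55126582, of 1.80, 1.55 and 1.90 on the DIO_CR_WR arrays, against 2.15, 2.39 and 2.38 on the DIO arrays. The DIO arrays of both slides lay above every DIO_CR_WR array. In limma the fold change was −0.56 ± 0.17 (SE), with adjusted p = 0.131, and the slide 1 value was −0.40; it stayed below 0 with the spike-ins, at −0.06.

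Prmt7, an enzyme of arginine monomethylation, had levels of 1.63, 1.64 and 1.96 on the DIO_CR_WR arrays, against 2.23, 2.48 and 2.08 on the DIO arrays, without overlap. Its fold change was −0.52 ± 0.18 (SE), with adjusted p = 0.146, and the slide 1 value was −0.48. A second kept Prmt7 probe gave −0.39, with overlapping groups. Prmt1, the main enzyme of asymmetric dimethylation, had levels of 2.72, 2.43 and 2.63 on the DIO_CR_WR arrays, against 3.08, 3.20 and 2.88 on the DIO arrays. Its groups did not overlap either, and the fold change was −0.46 ± 0.17 (SE), with adjusted p = 0.151, −0.49 on slide 1 and 0.04 with the spike-ins. On a second kept Prmt1 probe the groups overlapped, with a fold change of −0.27. Prmt8, a membrane-bound enzyme known mainly from brain, was well above background on 1 of 3 DIO_CR_WR arrays and on 3 of 3 DIO arrays, so its DIO_CR_WR level is mostly unmeasured. The levels read were −6.27, −7.47 and −4.86 on the DIO_CR_WR arrays, against −5.07, −3.74 and −5.97 on the DIO arrays. The values overlapped and spread over more than 2 log2 units in each group (difference of −1.27 ± 0.79, SE, adjusted p = 0.327). Prmt6, which methylates histone H3 at arginine, had a fold change of 0.53 ± 0.40 (SE) with both slide 2 arrays lowest, and −0.29 on slide 1. Prmt2, Prmt3 and Prmt10 were at 0.23, −0.21 and −0.22, all with overlap. With the spike-ins Prmt3 and Prmt10 were at 0.29 and 0.28.

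**Figure D3:**
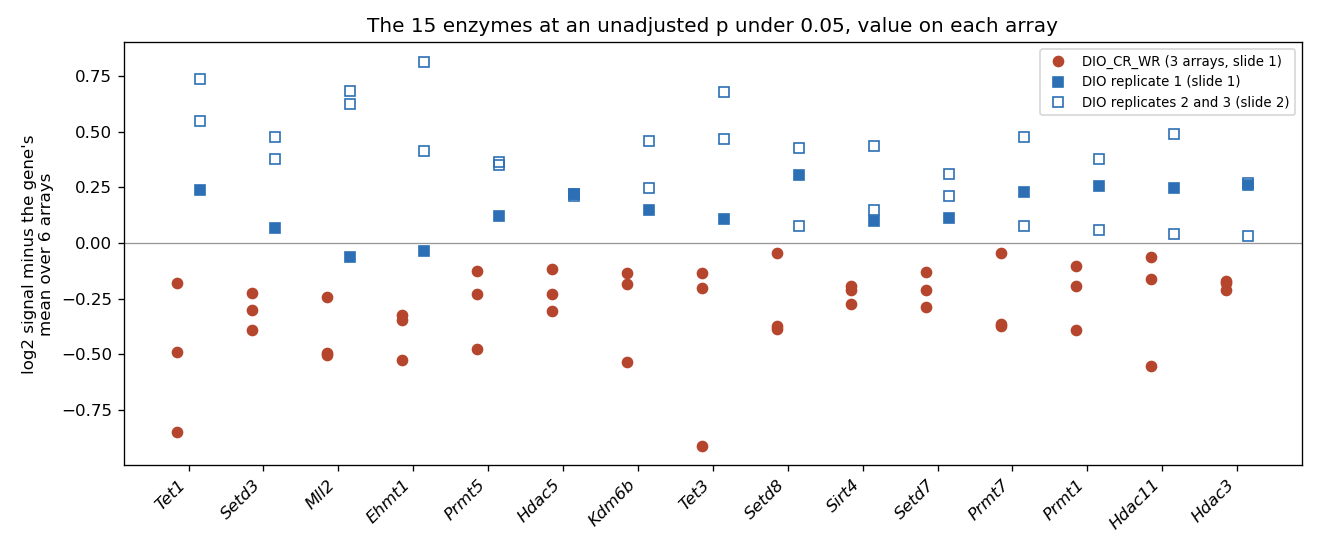
Log2 signal of the 15 enzymes with an unadjusted p under 0.05, each minus the gene's mean over the 6 arrays, with the DIO_CR_WR arrays as circles, DIO replicate 1 (slide 1) as filled squares and DIO replicates 2 and 3 (slide 2) as open squares. In every gene shown the 3 circles lie below all 3 squares, and in 9 of the 15 both open squares lie above the filled one, as in Mll2, Ehmt1, Setd3 and Tet1.

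The 12 SET domain and MLL methyltransferases had a median fold change of −0.14, with 5 lower and 1 higher without overlap and 4 lower at an unadjusted p under 0.05. Of all genes 26.8% were lower and 7.18% higher without overlap, and 21.8% were lower at that limit. Setd3, an actin histidine methyltransferase first described as a histone lysine enzyme, had levels, at a probe on chr12:109344647-109344706, of 2.19, 2.28 and 2.36 on the DIO_CR_WR arrays, against 2.65, 2.96 and 3.06 on the DIO arrays. The groups did not overlap, and the fold change was −0.61 ± 0.17 (SE), with adjusted p = 0.126, and the slide 1 value was −0.37. With normexp background correction and quantile normalization it was −0.03. 

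Mll2 on this array is the gene now called Kmt2d, which monomethylates H3K4 at enhancers, and its levels at the brightest probe, on chr15:98664117-98664176, were −0.31, −0.32 and −0.06 on the DIO_CR_WR arrays, against 0.12, 0.81 and 0.87 on the DIO arrays. DIO replicate 1 lay above the DIO_CR_WR arrays but well below the slide 2 arrays. The fold change was −0.83 ± 0.24 (SE), with adjusted p = 0.13, and the slide 1 value was −0.35. Its other 2 probes gave −0.57, without overlap, and −0.76, with overlapping groups. The probe at −0.76 was well above background on 2 of 3 DIO_CR_WR arrays. Mll3 (Kmt2c), the paralog of Kmt2d, had levels of 2.02, 1.57 and 1.63 on the DIO_CR_WR arrays, against 2.11, 2.11 and 2.11 on the DIO arrays. All DIO values stood at 2.11, above the DIO_CR_WR arrays, and the fold change was −0.37 ± 0.17 (SE) (adjusted p = 0.213), with 0.13 under spike-in scaling.

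Setd8 (Kmt5a), the H4K20 monomethyltransferase, had levels of 1.38, 1.71 and 1.37 on the DIO_CR_WR arrays, against 2.06, 2.18 and 1.83 on the DIO arrays. There was no overlap on this probe or on the second, which gave −0.70 against −0.54 ± 0.18 (SE) here (adjusted p = 0.137), and the slide 1 value was −0.57. Setd7, a lysine methyltransferase of H3K4 and of other proteins, had levels of 2.18, 2.26 and 2.34 on the DIO_CR_WR arrays, against 2.58, 2.78 and 2.68 on the DIO arrays. The groups did not overlap, with a fold change of −0.42 ± 0.14 (SE), adjusted p = 0.145, −0.31 on slide 1 and 0.09 with the spike-ins.

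Mll1 (Kmt2a), an H3K4 methyltransferase that maintains Hox gene expression, was the 1 enzyme higher without overlap. Its levels were −0.50, −0.84 and −0.66 on the DIO_CR_WR arrays, against −0.86, −0.85 and −3.23 on the DIO arrays. DIO_CR_WR replicate 2 was barely above DIO replicates 1 and 2, and DIO replicate 3 stood more than 2 log2 units below every other array. This gave a fold change of 0.98 ± 0.64 (SE), with adjusted p = 0.35, 0.19 on slide 1 and 0.19 without DIO replicate 3. Setd2, which trimethylates H3K36, had levels of 1.24, 1.25 and 1.36 on the DIO_CR_WR arrays, against 1.38, 0.52 and 0.09 on the DIO arrays. The slide 1 DIO array was the highest and the slide 2 arrays the lowest, and the fold change of 0.62 ± 0.33 (SE) (adjusted p = 0.26) became −0.09 on slide 1. Mll1, Setd2 and Kdm3b were singled out after their values were seen. Setd1a, Setd4, Setd5, Setd6 and Mll5 lay between −0.15 and 0 with overlapping groups.

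Among the 6 members of PRC2 and the H3K9 methyltransferases, Ehmt1 was lower at an unadjusted p under 0.05, where 21.8% of all genes were. The class median was −0.14. Ehmt1 (GLP), which forms the H3K9 methyltransferase dimer with Ehmt2 and is described as part of the PRDM16 complex of brown fat, had levels, at a probe on chr2:24646395-24646454, of 3.99, 4.17 and 4.19 on the DIO_CR_WR arrays, against 4.48, 5.33 and 4.93 on the DIO arrays. The groups did not overlap, and the fold change was −0.80 ± 0.24 (SE), with adjusted p = 0.131, and the slide 1 value was −0.37. A second Ehmt1 probe, starting 370 bases away on mm9, had levels of 1.53, 1.49 and 1.57 on the DIO_CR_WR arrays, against 1.55, 0.83 and 0.81 on the DIO arrays. Its fold change was 0.47, so the direction for Ehmt1 depended on the probe. Ehmt2 (G9a) was lower without overlap, at −0.25 ± 0.18 (SE) (adjusted p = 0.39), with −0.08 on slide 1 and 0.25 with the spike-ins.

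PRC2 places the repressive H3K27 methyl mark. Its subunit Suz12 had levels of 1.29, 1.24 and 1.16 on the DIO_CR_WR arrays, against 1.27, 0.81 and 0.38 on the DIO arrays, with both slide 2 arrays lowest. In limma the fold change was 0.42 ± 0.24 (SE) (adjusted p = 0.299), and the slide 1 value was −0.03. Ezh1, a catalytic subunit typical of cells that do not divide, had levels of 2.25, 2.22 and 2.56 on the DIO_CR_WR arrays, against 2.34, 2.86 and 2.89 on the DIO arrays. The slide 2 arrays were highest; the fold change was −0.35 ± 0.21 (SE) over all arrays (adjusted p = 0.309), 0.01 on slide 1 and 0.15 with the spike-ins. Ezh2, the catalytic subunit typical of dividing cells, had levels of −1.36, −1.25 and −1.81 on the DIO_CR_WR arrays, against −1.40, −1.49 and −1.47 on the DIO arrays and a fold change of −0.02 ± 0.19 (SE) (adjusted p = 0.943). Eed, the subunit that binds the mark, was at 0 ± 0.15 (SE).

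The 14 histone demethylases had a median fold change of 0.09, and 11 of the 14 lay above the median of all genes. At an unadjusted p under 0.05, 1 of the 14 was lower, where 21.8% of all genes were. Kdm6b (JMJD3), an H3K27 demethylase, was the 1 member at an unadjusted p under 0.05 and had levels, at a probe on chr11:69212177-69212236, of 1.38, 1.33 and 0.98 on the DIO_CR_WR arrays, against 1.66, 1.76 and 1.97 on the DIO arrays. All DIO_CR_WR values were lower than all DIO values. The fold change was −0.57 ± 0.18 (SE), with adjusted p = 0.134, and the slide 1 value was −0.42. Its paralog Kdm6a (UTX) had a fold change of −0.23 ± 0.17 (SE), with overlap, and 0.27 with the spike-ins.

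Kdm4b, an H3K9 demethylase, had levels of 0.79, 0.85 and 1.01 on the DIO_CR_WR arrays, against 1.01, 1.18 and 1.29 on the DIO arrays. DIO replicate 1 equalled DIO_CR_WR replicate 3 to 2 decimals, which left the groups touching but not overlapping, with a fold change of −0.28 ± 0.16 (SE) (adjusted p = 0.284), −0.13 on slide 1 and 0.23 with the spike-ins. Kdm4c, of the same family, had levels of −0.03, −0.06 and −0.23 on the DIO_CR_WR arrays, against −0.13, −0.62 and −1 on the DIO arrays. Both slide 2 arrays were lowest, and the fold change of 0.48 ± 0.24 (SE) (adjusted p = 0.246) was 0.03 on slide 1.

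Kdm3b, an H3K9 demethylase, had the most positive fold change of the 69, 0.99 ± 0.57 (SE), which ran from 0.42 without DIO replicate 1 to 1.61 without DIO replicate 2. A second kept probe gave 0.15. The levels of the brighter probe were −1.15, −1.32 and −0.91 on the DIO_CR_WR arrays, against −3.26, −0.88 and −2.22 on the DIO arrays. DIO replicate 2 lay above all DIO_CR_WR arrays and the other 2 DIO arrays far below them, so the groups overlapped (adjusted p = 0.291). On slide 1 the fold change was 2.14, and Kdm3b was the only enzyme higher at an unadjusted p under 0.05 with slide as a block (adjusted p = 0.418). That value rests on the single DIO array of slide 1. Kdm3a, its paralog and a regulator of thermogenic and lipid genes in mice, had levels of 0.40, 0.40 and 0.46 on the DIO_CR_WR arrays, against 0.50, 0.31 and 0.53 on the DIO arrays and a fold change of −0.02 ± 0.14 (SE) (adjusted p = 0.928). Kdm1a (LSD1), which demethylates H3K4 in the CoREST complex, had levels of 0.63, 0.52 and 0.76 on the DIO_CR_WR arrays, against 0.55, 0.13 and 0.37 on the DIO arrays. The DIO arrays overlapped with it through replicate 1, and the fold change was 0.29 ± 0.17 (SE) (adjusted p = 0.311), and the slide 1 value was 0.08.

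Several of the larger positive fold changes were near or below 0 on slide 1. In 12 of the 69 enzymes (17.4%) both slide 2 arrays lay below all 4 slide 1 arrays, against 10.2% of all genes. These were Tet2, Setd2, Ep300, Prmt6, Hdac8, Kdm4c, Kdm1b, Suz12, Kdm5a, Kdm1a, Kdm4a and Hdac1. In 23 enzymes (33.3%) both slide 2 arrays lay above all slide 1 arrays, against 34.8% of all genes. The range within a group was larger in DIO than in DIO_CR_WR in 51 enzymes (73.9%), against 60.2% of all genes, with median ranges of 0.22 in DIO_CR_WR and 0.45 in DIO. The part of the slide in these values was not tested beyond the single shared DIO array. The 23 enzymes lower without overlap were all below 0 on slide 1 as well, at −0.74 to −0.05, with a median of −0.38 there and −0.45 over all arrays; since a lack of overlap places DIO replicate 1 above the DIO_CR_WR arrays, this sign follows from the choice.

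**Figure D4:**
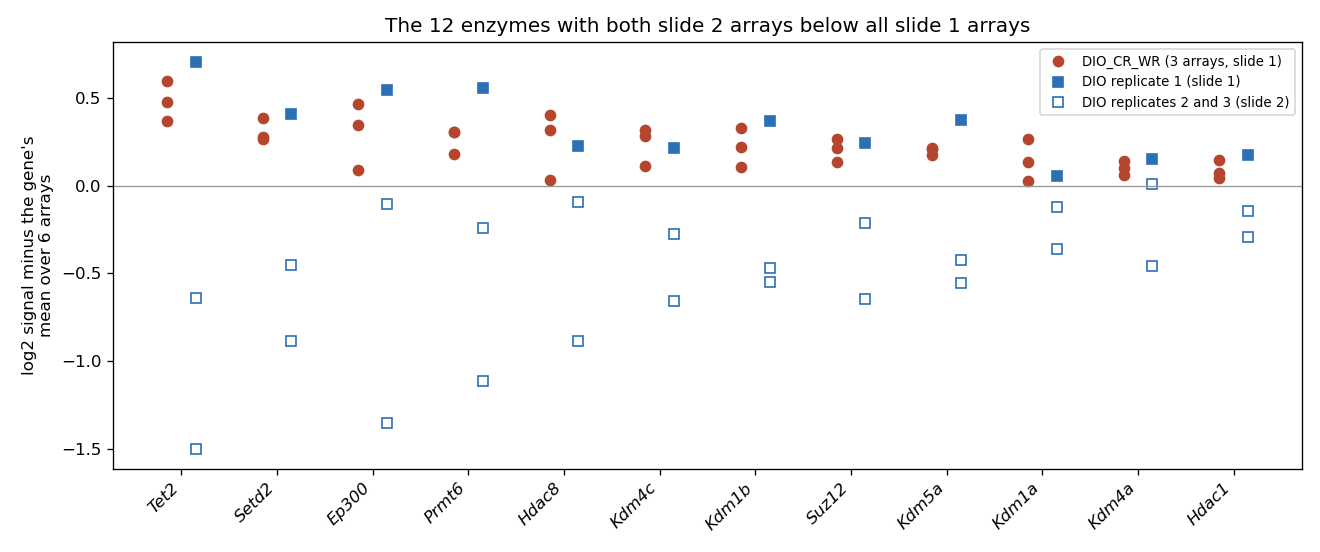
Log2 signal of the 12 enzymes in which both slide 2 arrays were lowest, each minus the gene's mean over the 6 arrays, with the DIO_CR_WR arrays as circles, DIO replicate 1 (slide 1) as filled squares and DIO replicates 2 and 3 (slide 2) as open squares. The filled squares sit with or above the circles and the open squares below them.

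**Figure D5:**
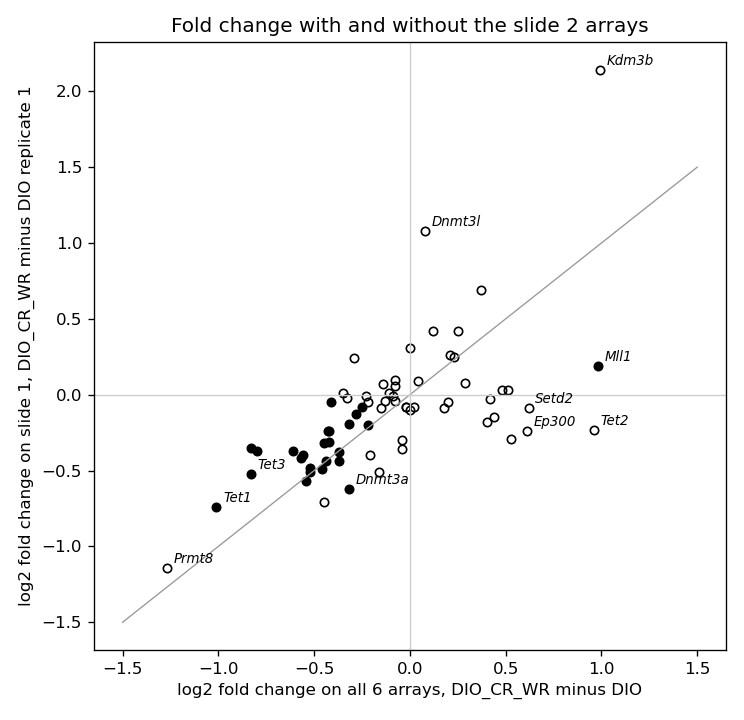
Log2 fold change (DIO_CR_WR minus DIO) of the 69 enzymes over all 6 arrays on the horizontal axis and on slide 1 alone, where DIO is 1 array, on the vertical axis, with the line of equal values. Filled points are the enzymes without overlap over all arrays. Tet2, Ep300 and Setd2 move to −0.23, −0.24 and −0.09 on slide 1, while Tet1 stays at −0.74.

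Without DIO replicate 1, the groups lie on different slides and slide and group cannot be told apart. In that fit 8 enzymes passed an adjusted p of 0.05, where 4022 of all genes (15.4%) did. Ehmt1, Mll2, Setd3 and Tet1 were lower, at −1.02, −1.07, −0.73 and −1.15, and Kdm1b, Kdm5a, Setd2 and Tet2 were higher, at 0.73, 0.69, 0.98 and 1.55. With slide as a block in the fit, or on slide 1 alone, 1 enzyme was higher and 1 was lower at an unadjusted p under 0.05. Among all genes the block left 4.57% higher and 6.01% lower, and slide 1 alone 5.44% higher and 5.13% lower. The number of enzymes lower at an unadjusted p under 0.05 was 15 over all arrays, and it was 6 without DIO replicate 2 (9.37% of all genes lower), 7 without DIO_CR_WR replicate 2 (13.7%) and 9 without DIO_CR_WR replicate 3 (20.2%).

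Of the 69 enzymes, 25 had at least 2 kept probes. In 14 of them all kept probes gave fold changes of 1 sign, lower in 12 and higher in 2, and in 11 the probes gave both signs. Kept probes at or near background in DIO_CR_WR are counted here, as for Tet1. Besides Ehmt1, Tet2, Hdac8, Sirt7 and Prmt6, the 11 were Hdac10, Kdm5b, Kdm2a, Kdm2b, Dnmt3b and Ezh1. The level used for each gene is that of its brightest probe.

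Other genes of the same machinery were read from 6 lists of 11 to 23 measured members each. With an unadjusted p under 0.05 as the limit, 5 genes of these lists were higher, where 5.38% of all genes were, and 11 were lower, where 21.8% were, and 0 passed an adjusted p of 0.05. Their median fold change was −0.07, and 67.3% of them lay above the median of all genes. Of 18 further methyltransferases, 5 were lower and 0 higher. Smyd2, a lysine methyltransferase abundant in muscle, had levels of 2.88, 2.60 and 3.04 on the DIO_CR_WR arrays, against 3.50, 4.07 and 4.02 on the DIO arrays, a fold change of −1.02 ± 0.22 (SE) and adjusted p = 0.118. Carm1 (Prmt4), an arginine methyltransferase and coactivator, had levels of 1.28, 1.28 and 1.48 on the DIO_CR_WR arrays, against 1.89, 1.94 and 1.86 on the DIO arrays, a fold change of −0.55 ± 0.14 (SE) and adjusted p = 0.122. Neither gene overlapped between groups.

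Of 23 subunits of corepressor and deacetylase complexes, 5 were lower and 1 was higher. Sap18, a Sin3-associated protein, had levels of 0.16, 0.29 and 0.09 on the DIO_CR_WR arrays, against −0.17, −0.39 and −0.32 on the DIO arrays, a fold change of 0.47 ± 0.15 (SE) and adjusted p = 0.133. All DIO_CR_WR values of Sap18 were above all DIO values. Of 23 MLL and polycomb subunits, 3 were higher and 0 lower. Phf1, a PRC2 accessory subunit, had a fold change of 0.49 ± 0.14 (SE) (adjusted p = 0.131), and Rnf2 (RING1B), the ubiquitin ligase of PRC1, one of 0.57 ± 0.20 (SE) (adjusted p = 0.142). Of 15 demethylases and oxygenases, 1 was lower, Jmjd5, at −0.65 ± 0.17 (SE) (adjusted p = 0.122), followed by Hif1an, an asparagine hydroxylase of HIF, at −0.62 ± 0.26 (SE) (adjusted p = 0.189). Of 17 readers of methylation and acetylation, 1 was higher, Zbtb38, which binds methylated DNA, at 0.41 ± 0.15 (SE) (adjusted p = 0.154), next to Mbd4, a glycosylase that binds methylated CpG, at 0.35 ± 0.15 (SE) (adjusted p = 0.185). Of 11 acetyltransferases, 0 reached an unadjusted p under 0.05, and the lowest p belonged to Myst4 at −0.38 ± 0.16 (SE) (adjusted p = 0.193) and Gtf3c4 at 0.45 ± 0.19 (SE) (adjusted p = 0.195).

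Markers of the cells that inguinal fat can hold were read on the same arrays. The summed signal of 9 adipocyte markers, in units of the array's 75th percentile, was 145 to 199 in DIO_CR_WR and 166 to 206 in DIO, and 2 of the 9, Lipe and Retn, were lower at an unadjusted p under 0.05. Counts of markers here stand against 5.38% of all genes higher and 21.8% lower by that limit. The sum of 10 skeletal muscle markers was 156 to 208 in DIO_CR_WR and 248 to 281 in DIO, without overlap, and 6 of the 10 were lower at an unadjusted p under 0.05. The sum of 8 T and B lymphocyte markers was 1.95 to 3.68 in DIO_CR_WR and 1.1 to 2.0 in DIO, with 4 of 8 higher. Macrophage markers summed to 72.1 to 84.1 in DIO_CR_WR and 64.2 to 101 in DIO, with 1 of 8 higher. Endothelial and stromal markers summed to 46.1 to 56.3 in DIO_CR_WR and 44.1 to 72.8 in DIO, with 4 of 9 higher, and markers of proliferating cells to 8.26 to 10.0 in DIO_CR_WR and 8.42 to 13.2 in DIO, with 1 of 11 higher. In whole tissue, fewer cells of a type and less RNA per cell cannot be told apart. The part of muscle, lymphocyte or other cell content in the enzyme levels was not tested.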

How the data were processed

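Labelled cRNA came from 0.5 µg of RNA per sample. The authors deposited spot intensities. Per the file headers, their Feature Extraction software subtracted a local background and corrected spatial trends, without normalization between arrays. Its version is 10.7.1.1 per the submitters' processing notes and 10.7.3.1 per the file headers. The deposited files also flag each spot with a score of 0 or 1 as outlier, saturated or well above background. A series table was not used here, since its columns do not carry the sample titles.

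Computation used R (4.3.3), limma (3.58.1) and data.table (1.17.8). The 3671 control spots and outlier-flagged spots were left out, spots of a probe were averaged on the log2 scale, and each array's 75th percentile of the log2 processed intensity was subtracted. Probes well above background on at least 3 of 6 arrays were kept, and the brightest probe stood for a gene name. limma was fitted to all 26178 genes, with Benjamini-Hochberg adjustment over them at 0.05, and was tested on simulated data. Probe positions are on mm9, as deposited; their exon or UTR was not assigned here. Precision is limited by 3 arrays per group.

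The enzymes, the lists of other genes and the cell markers were chosen with earlier results of these data known. In each class the 3 enzymes with the smallest p were named, plus Hdac3, Hdac9, Sirt1, Sirt3, Dnmt1, Dnmt3a, Tet2, Kdm1a, Kdm3a, Ezh2, Ep300, Crebbp, Ehmt1 and Prmt5, and the 2 smallest p of each other list. Results of some genes that these rules picked are not reported here. Mll1, Setd2, Kdm3b and further members were added after their values were seen.

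Alternatives were quantile normalization, normexp (offset 50) with quantile normalization, centring on the median or on 8 E1A spike-in probes, no filter or a filter on all arrays, the probe mean per gene, a robust variance with a trend, a block for replicate number or for slide, slide 1 alone, and leaving out each array. Arrays of the same replicate number did not deviate together (correlations of −0.01, −0.12 and −0.24 over genes).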

Additional observations from a re-analysis of the deposited data

How the results depend on the processing

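With 3 arrays per group, 1 DIO array on the slide of the DIO_CR_WR arrays and 51.1% to 79.2% of probes well above background, small changes are beyond this design. Shares of all genes stand in parentheses. When arrays were left out, 9.37% to 28.6% of all genes were lower and 3.04% to 8.73% higher at an unadjusted p under 0.05. Without overlap, 27.9% to 42.5% of all genes were then lower and 8.27% to 13.9% higher. The 15 enzymes lower at an unadjusted p under 0.05 (21.8%) became 7 with quantile normalization (14.1%), 3 with normexp (15.4%), 7 with centring on the median (15.2%), 0 with spike-in scaling (2.95%), 7 with the replicate block (18.9%), 1 with slide as a block (6.01%) and 1 on slide 1 alone (5.13%), and leaving out each array gave 6 to 17. The 0 higher enzymes (5.38%) became 2 with normexp (7.83%), 17 with spike-in scaling (21%), 1 with no filter (11.9%), 1 with slide as a block (4.57%) and 1 on slide 1 alone (5.44%), and 0 to 9 when arrays were left out. Higher without overlap, 1 (7.18%) became 3 with quantile normalization (10.1%), 4 with normexp (9.3%), 2 with median centring (8.45%), 23 with spike-in scaling (25.5%), 2 with no filter (14.9%), 3 with the probe mean (7.59%) and 12 on slide 1 alone (22.7%), and 2 to 13 when arrays were left out. Lower without overlap, 23 (26.8%) became 12 with quantile normalization (19.9%), 12 with normexp (20.7%), 12 with median centring (21.1%), 4 with spike-in scaling (4.85%) and 37 on slide 1 alone (39.8%), and 24 to 32 when arrays were left out. Enzymes called at an adjusted p under 0.05 stayed at 0 except for 0 to 8 when arrays were left out. All genes called (0) became 7 with spike-in scaling, 62 with the filter on all arrays, 26 with the trended variance, and 0 to 4022 when arrays were left out. The enzymes' median fold change turned to 0.36 with spike-in scaling and was −0.17 to −0.10 when arrays were left out, and it lay 0.04 to 0.09 above that of all genes there; with no filter on dim probes this difference of 0.06 became −0.03. Among the 38 enzymes followed singly, signs turned with normexp for Ezh2 (0.02); with median centring for Ezh2 (0.10), Kat2a (0.01) and Kdm3a (0.10); and with slide as a block or on slide 1 alone for Ep300 (−0.24), Ezh1 (0.01), Hdac1 (−0.09), Hdac9 (0.24), Kat2a (0.01), Setd2 (−0.09), Suz12 (−0.03) and Tet2 (−0.23). Of all 69, 17 turned on slide 1 alone, Prmt6, Kdm5a, Kdm1b and Kdm4a among them (−0.29, −0.18, −0.15 and −0.05), and 34 turned with spike-in scaling, all to above 0. Of the 38, those were Crebbp (0.08), Dnmt3a (0.18), Ezh1 (0.15), Ezh2 (0.48), Hdac3 (0.13), Hdac5 (0.06), Hdac6 (0.18), Hdac9 (0.21), Kat2a (0.39), Kdm3a (0.48), Kdm4b (0.23), Prmt1 (0.04), Sirt1 (0.09), Sirt2 (0.08), Sirt3 (0.28) and Sirt4 (0.05). Leaving out DIO_CR_WR replicate 3 turned Ezh2 to 0.14 (range −0.14 to 0.14 over the arrays left out), leaving out DIO replicate 1 turned Dnmt1 to −0.03 (range −0.03 to 0.34), and leaving out DIO replicate 3 turned Kdm3a to 0.02 (range −0.09 to 0.02). Some fold changes shrank without turning. Setd3 went from −0.61 to −0.03 with normexp, and Crebbp from −0.43 to −0.05 with quantile normalization and with normexp. With the mean of a gene's probes, Ehmt1 went from −0.80 to −0.17 and Ezh1 from −0.35 to −0.03. In the same setting Tet1 went from −1.01 to −0.64 and Tet2 from 0.96 to 0.48. The cause was not tested.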
